A study of Mus musculus with 24 samples.

Results

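Dbp, Tef, Hlf, Nfil3, Bhlhe40, Bhlhe41, Wee1 and Usp2 are genes through which the circadian clock acts on the liver. They were found as all probe sets whose 1 gene symbol in the platform table was among these names, which gave 15 of 45101 probe sets and 8 of 18193 genes, and all 8 genes passed the filter on low values that left 13113 genes. Liver RNA was measured on 24 Affymetrix 3' arrays, 1 for each male BALB/c mouse, with 6 mice in each of 4 groups. STZ mice received 185 mg/kg streptozotocin, a toxin of the pancreatic beta cells that make insulin, into the abdomen, were selected by a non-fasting glucose of 230 to 400 mg/dL, and ate the purified AIN93G diet for 14 days. The STZ + 0.1% quercetin and STZ + 0.5% quercetin mice had the same injection and selection and ate that diet with 0.1% or 0.5% quercetin, a plant flavonol. Control mice ate the AIN93G diet and had no treatment, so streptozotocin and the injection itself cannot be told apart. All mice arrived at 6 weeks of age, lived 3 to a cage under 12 hours of light and 12 of dark, with darkness between clock hours 8 and 20, and were killed under pentobarbital at an hour not given in the sources used here. The titles number the mice of every group 1 to 6, and what the numbers mark is not given either.

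In the core of the clock, CLOCK or its relative NPAS2 pairs with BMAL1, the product of Arntl, and activates genes through E-box sequences, among them the Per and Cry genes, whose proteins then repress the pair, and Nr1d1 and Nr1d2, whose proteins REV-ERBalpha and REV-ERBbeta repress Arntl, Npas2 and Nfil3. Dbp, Tef and Hlf encode the PAR bZIP transcription factors, which activate genes of detoxification and metabolism through D-box sequences. Nfil3 encodes a repressor that binds the same D-boxes and peaks when Dbp is low. Dbp is among the genes of mouse liver with the widest daily swing, so its level differs between livers taken at different hours.

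The upstream windows of Dbp, Tef, Nfil3 and Usp2 are printed because the results turn on these genes. They are RefSeq sequences of build GRCm38.p6, each from 250 bases before to 50 bases after an annotated gene start, on the strand of the gene. Dbp lies at chr7:45704997-45705296 (plus strand), Tef has windows at chr15:81802423-81802722 and chr15:81811164-81811463 (plus strand), Nfil3 lies at chr13:52980990-52981289 (minus strand) and Usp2 at chr9:44084670-44084969 (plus strand). Capitals mark the E-box CACGTG in the Tef windows and the ROR element TAGGTCA, read on the other strand as TGACCTA, in the Nfil3 window.
Dbp: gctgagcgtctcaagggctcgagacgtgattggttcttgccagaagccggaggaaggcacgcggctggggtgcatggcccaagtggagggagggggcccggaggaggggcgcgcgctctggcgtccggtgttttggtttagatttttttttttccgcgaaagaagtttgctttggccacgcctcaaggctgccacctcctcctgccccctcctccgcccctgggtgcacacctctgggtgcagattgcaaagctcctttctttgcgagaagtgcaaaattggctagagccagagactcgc
Tef, first window: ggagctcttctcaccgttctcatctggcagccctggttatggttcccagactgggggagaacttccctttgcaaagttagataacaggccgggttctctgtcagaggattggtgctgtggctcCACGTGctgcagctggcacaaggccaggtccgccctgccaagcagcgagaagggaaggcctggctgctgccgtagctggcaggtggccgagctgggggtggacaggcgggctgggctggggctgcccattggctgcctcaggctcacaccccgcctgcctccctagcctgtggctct
Tef, second window: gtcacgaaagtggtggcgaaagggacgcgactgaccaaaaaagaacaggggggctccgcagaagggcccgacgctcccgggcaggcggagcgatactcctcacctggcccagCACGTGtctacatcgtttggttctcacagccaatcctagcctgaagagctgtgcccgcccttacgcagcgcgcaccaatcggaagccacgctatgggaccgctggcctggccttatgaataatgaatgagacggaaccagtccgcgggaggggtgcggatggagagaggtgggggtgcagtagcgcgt
Nfil3: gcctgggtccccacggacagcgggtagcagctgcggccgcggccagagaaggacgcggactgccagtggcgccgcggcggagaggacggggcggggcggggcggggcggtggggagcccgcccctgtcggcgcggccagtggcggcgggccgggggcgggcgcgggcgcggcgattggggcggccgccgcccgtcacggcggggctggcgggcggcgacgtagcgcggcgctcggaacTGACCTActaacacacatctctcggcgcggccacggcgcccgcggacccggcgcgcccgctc
Usp2: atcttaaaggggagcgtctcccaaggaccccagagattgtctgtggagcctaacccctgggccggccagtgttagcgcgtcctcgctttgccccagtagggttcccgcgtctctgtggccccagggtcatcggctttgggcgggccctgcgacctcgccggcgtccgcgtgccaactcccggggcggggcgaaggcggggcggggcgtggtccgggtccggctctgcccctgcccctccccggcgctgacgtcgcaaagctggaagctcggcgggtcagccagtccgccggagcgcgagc
Windows were found for 6 of the 8 genes, 7 windows in all, and searched on both strands for 7 motifs. The E-box CACGTG stood 127 and 138 bases upstream of the Tef starts and 153 bases upstream of the Bhlhe41 start, and 7.15% of 32851 mouse windows of this length hold it. The ROR element TAGGTCA, the kind of site that REV-ERB proteins bind, lay 12 bases upstream of the Nfil3 start, and 2.61% of windows hold it. The cAMP response element TGACGTCA, whose share is 1.79%, lay 9 bases upstream of the Hlf start. The E-box variant CACGTT (4.68% of windows), the D-box TTATGTAA (0.938%), its variant TTACGTAA (0.119%) and the ROR element variant TGGGTCA (3.98%) were in none of the 7 windows. A match is a string of letters and not a site shown to be used, and the 2 ROR element strings and the 2 D-box strings share most of their letters.

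Levels are log2(intensity + 16) after quantile normalization, each gene by its brightest probe set, and differences were tested with limma over all 13113 genes, with Benjamini-Hochberg adjusted p under 0.05 as the threshold. Array averages lay between 61.0 and 102 intensity units before normalization, and correlations between arrays between 0.969 and 0.987. The hepatocyte markers were bright in every liver, each at or above the 98.8th percentile of probe sets, with summed intensities of 28200 to 31400 in STZ, 29100 to 30200 at 0.1%, 28200 to 30100 at 0.5% quercetin and 28400 to 29800 in control livers. On the first principal component, which carried 22.4% of the variance, 0.5% quercetin replicates 5 and 6 stood apart from the other STZ-injected mice, at -17.2 and -19.2. The other 16 injected mice lay between -0.864 and 19.6 and the controls between -18.3 and -13.5. These 2 mice thus lay in or just beyond the control range, against their label. The labels were followed, whether they hold was not tested, and what the 0.5% quercetin means stand for depends on it. For the clock output genes named, differences of that group from the others are given with and without these 2 mice. Counts and medians of the other gene lists are given only with them. In whole liver, fewer cells of a type and less RNA per cell cannot be told apart.

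Of the clock output genes, 2 were called between the 0.1% quercetin mice and the controls. Usp2, a deubiquitinating enzyme with a strong daily rhythm in liver, was 2.62-fold higher, and Nfil3, the D-box repressor, was 1.86-fold lower. The PAR bZIP genes Dbp and Tef had higher means at 0.1% quercetin as well without passing the test. In this comparison 5.57% of all genes tested were called (731 genes), against 2 of the 8 clock output genes.

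Usp2 had levels of 4.81, 6.48 and 7.43 at 0.1% quercetin and of 4.56, 5.02 and 5.43 in controls (lowest, median and highest of 6 mice). Of the 0.1% quercetin mice, 5 of 6 lay above every control, and replicate 2 lay within the control range. The means were 6.40 ± 1.01 at 0.1% quercetin and 5.01 ± 0.30 in controls (SD, n = 6 each), a log2 difference of 1.39 (SE 0.38, limma adjusted p = 0.0285). The SD was larger at 0.1% quercetin than in controls, with mice there both at 7.42 and 7.43 and within the control range. In STZ mice Usp2 had 4.87, 5.27 and 6.70 and at 0.5% quercetin 4.77, 5.45 and 6.92, so that the order of the means was 0.1% quercetin, 0.5% quercetin, STZ and control, with no neighbours in that order past the threshold. The call ended without control replicate 1 (adjusted p = 0.0542) or 2 (0.0641) and without 0.1% quercetin replicate 3 (0.0579), 5 (0.0895) or 6 (0.0863), where the difference stayed between 1.18 and 1.35.

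Nfil3 had levels of 5.49, 5.95 and 7.01 at 0.1% quercetin and of 6.70, 6.83 and 7.57 in controls. Here too 5 of 6 mice at 0.1% quercetin lay outside the control range, all of them below it, and replicate 2 was inside it. The means were 6.11 ± 0.57 and 7.01 ± 0.36 (0.1% quercetin and control, SD, n = 6 each), and Nfil3 fell by 0.90 on the log2 scale (SE 0.21, limma adjusted p = 0.0113). That call held without any 1 of the 24 arrays, at adjusted p of 0.00145 to 0.0414. In STZ mice the levels were 6.17, 6.97 and 7.18 and at 0.5% quercetin 6.21, 6.42 and 6.89, so that the means of 0.1% quercetin, 0.5% quercetin, STZ and control followed each other upward, with no neighbours past the threshold.

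The Gapdh 3' minus 5' log2 difference, a measure of RNA integrity, also differed between these groups, at -0.32 ± 0.15 at 0.1% quercetin and -0.04 ± 0.17 in controls (SD, n = 6 each, exact permutation p = 0.013, two-sided, adjusted p = 0.039 over 6 comparisons). With it as a covariate the Nfil3 difference was -0.79 (adjusted p = 0.225) and the Usp2 difference 0.84 (adjusted p = 0.464), and 4 genes of all those tested were called. The correlation of each gene with that measure over the 24 mice, group means removed, was 0.14 for Nfil3 and -0.40 for Usp2, given as a description. STZ mice, at a mean of -0.34, also differed from controls in the Gapdh measure (exact permutation adjusted p = 0.026). The same measure of Actb overlapped between the groups, at 1.04 to 1.373 at 0.1% quercetin and 0.969 to 1.555 in controls, and was not tested. Single genes of some marker lists differed between these groups too. Of 6 macrophage markers 2, Cd5l (0.66) and C1qa (0.46), were higher at 0.1% quercetin than in controls, with summed intensities of 1240 to 1520 and 903 to 1160. Of 3 B and T cell markers 1, Ighm (-1.76), was lower (sums of 32.5 to 70.8 at 0.1% quercetin and 136 to 276 in controls), of 5 stellate cell markers 1, Dcn (0.36), was higher (548 to 878 and 550 to 646), and the single exocrine pancreas marker tested, Cela1 (-1.36), was lower (146 to 278 and 470 to 632). Values after these names are log2 differences, with limma adjusted p between 0.000247 and 0.0487. The same genes were called between STZ mice and controls, at 0.58 for Cd5l, 0.48 for C1qa, -1.63 for Ighm, 0.41 for Dcn and -1.38 for Cela1. Between 0.1% quercetin and STZ they differed by 0.08, -0.02, -0.13, -0.05 and 0.02 in the same order, and none was called. At 0.1% quercetin against control the other markers of these lists were not called. By sign, all 6 macrophage markers had higher means and all 3 B and T cell markers lower ones, with Cd79b at -0.08 and Cd3g at -0.15. Of the stellate cell markers 4 had higher means, Col3a1 by 0.00, and 1, Lrat (-0.28), had a lower one. None of 5 hepatocyte, 4 endothelium or 3 bile duct markers was called by limma there (1, 2 and 1 at an unadjusted p under 0.05), and no adipocyte marker passed the filter. At 0.1% quercetin against control 5.57% of all genes were called, and 2483 of all 13113 had an unadjusted p under 0.05. The part of these markers in the Usp2 and Nfil3 differences was not tested.

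Tef, a PAR bZIP activator, had 7.10, 7.78 and 8.23 at 0.1% quercetin and 6.89, 7.20 and 7.42 in controls, with 5 of 6 mice at 0.1% quercetin above every control. Its difference of 0.58 (SE 0.18) did not pass (limma adjusted p = 0.0638), and passed where only the groups compared entered the fit (adjusted p = 0.0417). Dbp had 7.54, 9.16 and 9.38 at 0.1% quercetin and 7.07, 8.0 and 8.96 in controls, a difference of 0.76 (SE 0.51, limma adjusted p = 0.455). Bhlhe40, which encodes the E-box repressor DEC1, differed by -0.46 (SE 0.22, adjusted p = 0.261), and Wee1, a kinase that delays entry into mitosis, by 0.49 (SE 0.25, adjusted p = 0.292). Hlf, the last PAR bZIP gene, and Bhlhe41, which encodes DEC2, each differed by -0.05, with 95% intervals of -0.44 to 0.34 and -0.28 to 0.18. The median difference of the 8 genes was 0.22 and that of all genes -0.01. All groups overlapped for every one of the 8 genes.

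**Figure D1:**
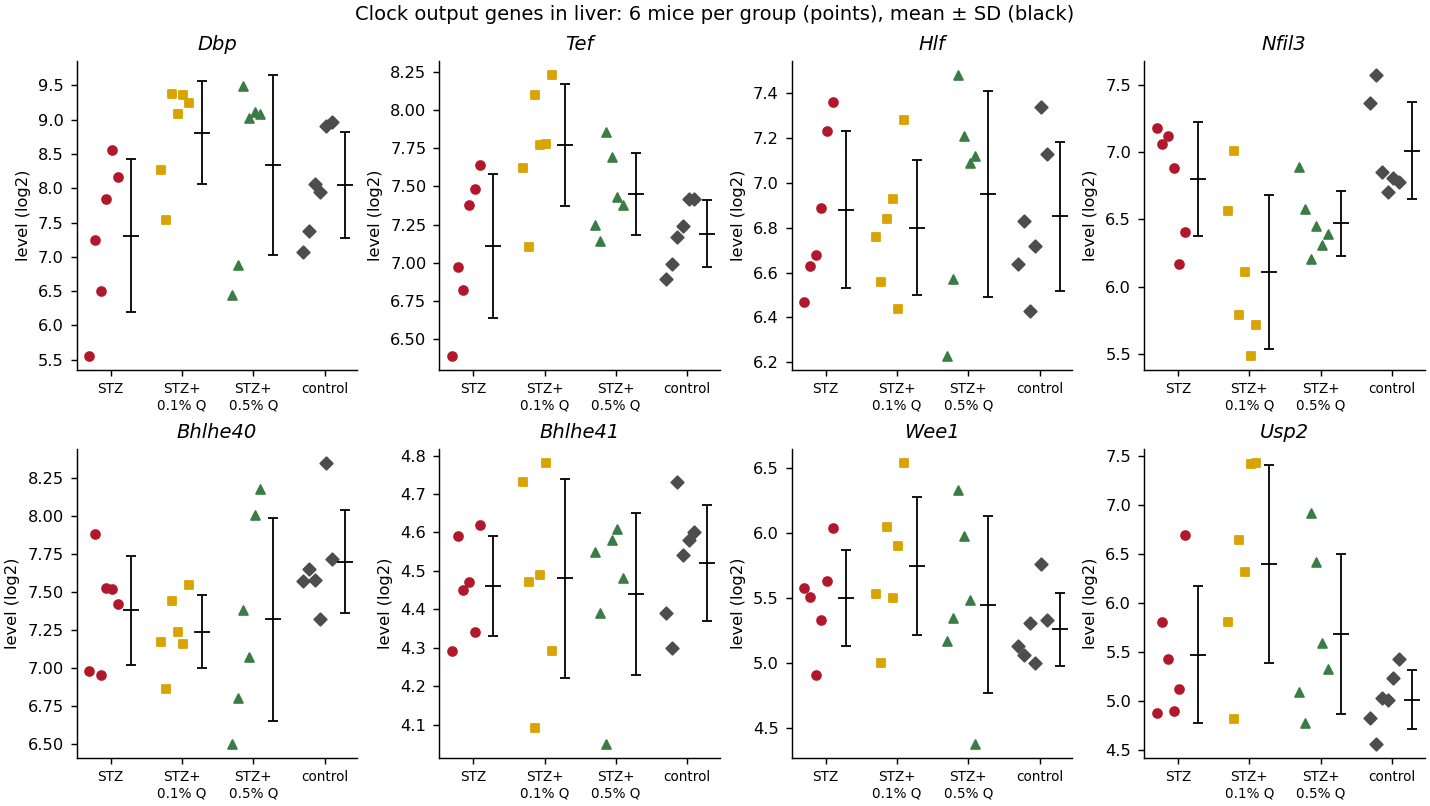
Level (log2(intensity + 16), y axis) of the 8 genes in each mouse of the 4 groups (x axis, Q for quercetin); points from left to right within a group are replicates 1 to 6, and black bars are the mean ± SD of 6 mice. Usp2 lies highest and Nfil3 lowest at 0.1% quercetin, with 1 mouse of that group inside the control range for each.

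The comparison of the quercetin diets with STZ on the plain diet asks what quercetin added in diabetic mice. No clock output gene was called at either dose, where 0% of all genes passed for both. At an unadjusted p under 0.05, 4 of the 8 passed at 0.1% quercetin, against 5.24% of all genes, and 0 of the 8 at 0.5% quercetin, against 7.51%. The 4 were Dbp, Tef and Usp2 with higher means and Nfil3 with a lower one. Dbp had 7.54, 9.16 and 9.38 at 0.1% quercetin against 5.56, 7.54 and 8.56 in STZ mice, and 4 of 6 mice at 0.1% quercetin lay above every STZ mouse. The difference was 1.50 (SE 0.51, a 2.83-fold ratio of geometric means, limma adjusted p = 0.87). Tef differed by 0.65 (SE 0.18, adjusted p = 0.87), Nfil3 by -0.69 (SE 0.21, adjusted p = 0.87) and Usp2 by 0.93 (SE 0.38, adjusted p = 0.885), all by limma.

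At 0.5% quercetin Dbp fell into separate levels, with replicates 1 and 2 at 6.45 and 6.88 and replicates 3 to 6 between 9.02 and 9.49. Its mean was 8.34 ± 1.31 at 0.5% quercetin and 7.31 ± 1.12 in STZ mice (SD, n = 6 each), a difference of 1.03 (SE 0.51, limma adjusted p = 0.671). Tef differed by 0.34 (SE 0.18), Nfil3 by -0.33 (SE 0.21) and Usp2 by 0.22 (SE 0.38) between the same groups. Without 0.5% quercetin replicates 5 and 6 these differences were 0.65 for Dbp, 0.37 for Tef, -0.27 for Nfil3 and 0.33 for Usp2. A fit with the replicate number as a block gave the Dbp difference from STZ an SE of 0.29 at either dose. Dbp was called at neither dose in that fit.

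STZ mice against controls showed no call among the 8 genes, where 3.72% of all genes passed (488 genes), and 0 of the 8 had an unadjusted p under 0.05, where 16.7% of all genes did. Dbp differed by -0.74 (SE 0.51, limma adjusted p = 0.502), with 2 STZ mice below every control. Usp2 differed by 0.46 (SE 0.38), Bhlhe40 by -0.31 (SE 0.22) and Nfil3 by -0.21 (SE 0.21), with adjusted p of 0.602, 0.52 and 0.691. The 95% interval of the Dbp difference, -1.79 to 0.31, was wide. Those of Tef (-0.45 to 0.30), Hlf (-0.36 to 0.42) and Bhlhe41 (-0.29 to 0.16) were narrower. The fit behind these intervals leaves the differences between replicate numbers, described below, in the error. With the number as a block, which the labels do not name as one, the Dbp SE was 0.29 in place of 0.51. No clock output gene was called there either.

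At 0.5% quercetin against control 0 of the 8 genes were called, with 0.13% of all genes (17 genes). At an unadjusted p under 0.05, 1 of the 8 passed, against 12.3% of all genes. It was Nfil3, which differed by -0.54 (SE 0.21, limma adjusted p = 0.289), with 5 of 6 mice below every control. Dbp differed by 0.28 (SE 0.51), Usp2 by 0.67 (SE 0.38) and Bhlhe40 by -0.37 (SE 0.22). Without 0.5% quercetin replicates 5 and 6, which had the highest Bhlhe40 levels of their group at 8.01 and 8.18, Bhlhe40 was called (-0.76, limma adjusted p = 0.0263) and Dbp differed by -0.09. Nfil3 then differed by -0.48 and Usp2 by 0.79. In that setting 432 genes were called, 3.29% of all genes, against 17 with all mice. Between the doses, 0.5% against 0.1% quercetin, 0 of the 8 were called and 0% of all genes, and at an unadjusted p under 0.05, 0 of the 8 and 8.34% of all genes. The differences were -0.72 (SE 0.38) for Usp2, -0.47 (SE 0.51) for Dbp, 0.36 (SE 0.21) for Nfil3 and -0.31 (SE 0.18) for Tef. Without 0.5% quercetin replicates 5 and 6 they were -0.60 for Usp2, -0.85 for Dbp, 0.42 for Nfil3 and -0.29 for Tef, each with an adjusted p of 0.976. These comparisons share groups of mice, so their values are not independent of each other.

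**Figure D2:**
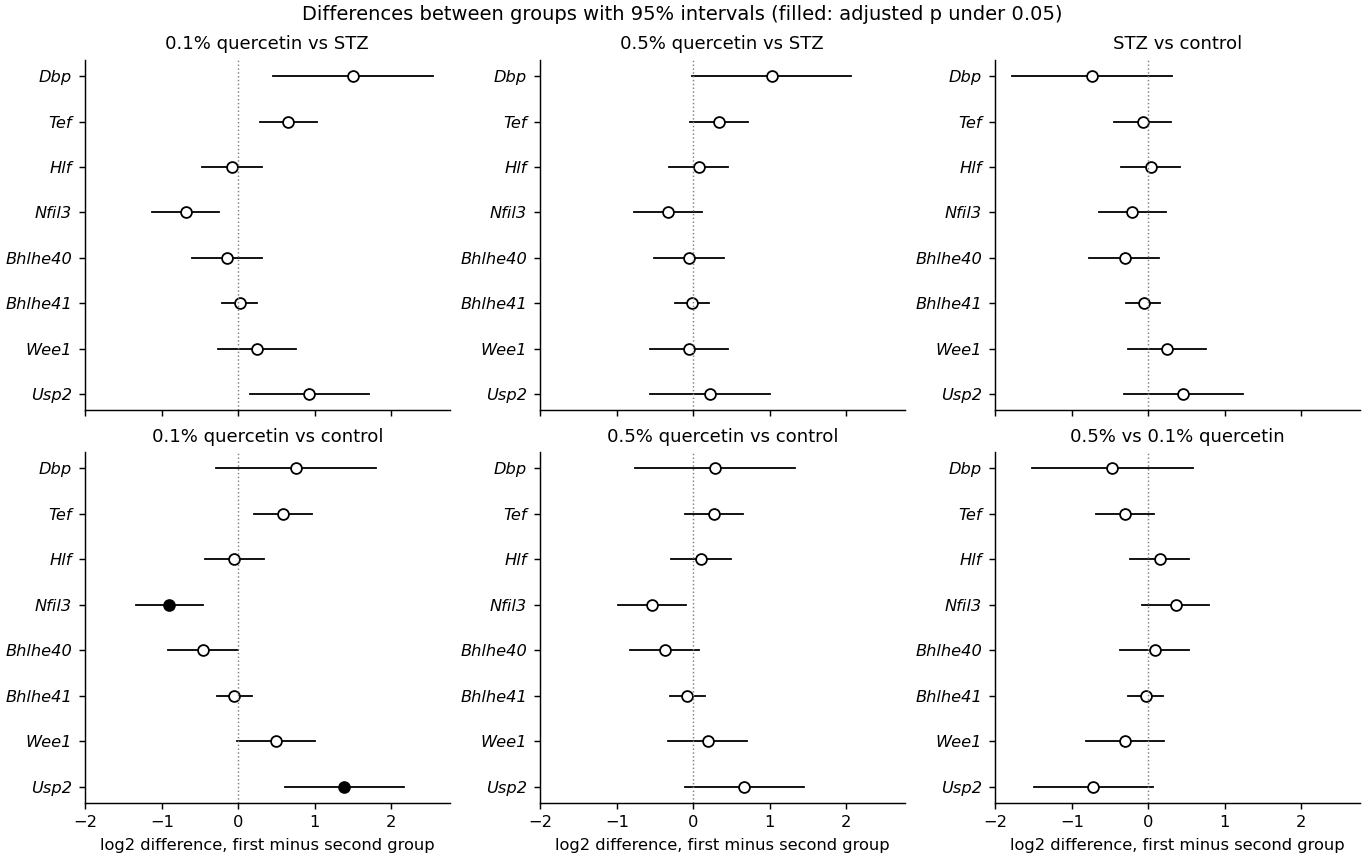
Log2 difference (x axis) of each gene (y axis) in the 6 comparisons, first-named minus second-named group, with 95% intervals from the limma fit; filled points have an adjusted p under 0.05. Nfil3 and Usp2 at 0.1% quercetin against control, at -0.90 and 1.39, are the filled points.

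The replicate number in the titles went with the level of Dbp across groups. Its differences between numbers, after the group means were taken out, ranked 4th by p of 13113 genes (F test over the 6 numbers, limma adjusted p = 0.0266). Dbp was 1 of 6 genes called by that test, and 0.0458% of all genes tested were called, against 1 of the 8 clock output genes. At an unadjusted p under 0.05, 5 of the 8 (Dbp, Nfil3, Tef, Hlf and Usp2) and 6.33% of all genes passed. The call of Dbp depended on single arrays, as it was lost without 14 of 24 (adjusted p of 0.0504 to 0.106), namely control replicates 1, 2, 5 and 6, STZ replicates 1, 5 and 6, 0.1% quercetin replicates 2, 5 and 6, and 0.5% quercetin replicates 1, 2, 5 and 6. It was also lost without 0.5% quercetin replicates 5 and 6 together (adjusted p = 0.0743).

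In STZ mice Dbp was 7.84, 8.56 and 8.17 at numbers 4, 5 and 6, against 5.56, 7.24 and 6.50 at numbers 1, 2 and 3, and these 2 sets of numbers did not overlap. At 0.1% quercetin it was 9.08, 9.36 and 9.24 at numbers 4 to 6, against 8.26, 7.54 and 9.38 at 1 to 3. Replicate 3 there reached the upper set and the other 2 mice did not. The 0.5% quercetin mice had 9.02, 9.11 and 9.08 at numbers 4 to 6, against 6.45, 6.88 and 9.49 at 1 to 3. Controls had 7.95, 8.91 and 8.96 at numbers 4 to 6, against 7.07, 7.38 and 8.06 at 1 to 3. In these 2 groups as well the overlap came from replicate 3 alone. Over all groups numbers 4 to 6 were higher than 1 to 3 by 1.29 (SE 0.27, 2.44-fold), a split chosen with earlier results of these data known and therefore given with no test. Over the 24 livers Dbp spanned 5.56 to 9.49, a 15.2-fold range.

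Nfil3 went the opposite way. It was 6.88, 6.17 and 6.41 at numbers 4 to 6 in STZ mice, against 7.18, 7.06 and 7.12 at 1 to 3, and 6.70, 6.81 and 6.78 in controls, against 7.36, 7.57 and 6.85, with no overlap within either group. At 0.1% quercetin it was 6.11, 5.49 and 5.72 at numbers 4 to 6, against 6.56, 7.01 and 5.79 at 1 to 3, and at 0.5% quercetin 6.45, 6.31 and 6.39, against 6.89, 6.58 and 6.21. Replicate 3 of each quercetin group was the mouse of numbers 1 to 3 that reached down to the others, as it was the one that reached up for Dbp. The difference of numbers 4 to 6 minus 1 to 3 was -0.50 (SE 0.12), and the F test over the numbers gave an adjusted p = 0.104 (limma).

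Of the other PAR bZIP genes, Tef differed by 0.38 (SE 0.11) and Hlf by 0.38 (SE 0.11) between numbers 4 to 6 and 1 to 3. Usp2 differed by 0.52 (SE 0.25), Bhlhe40 by 0.36 (SE 0.14), Wee1 by 0.16 (SE 0.18) and Bhlhe41 by 0.11 (SE 0.08). Numbers 4 to 6 had the higher mean in 4 of 4 groups for Dbp, Tef, Hlf, Bhlhe40, Bhlhe41 and Usp2, in 3 of 4 for Wee1 and in 0 of 4 for Nfil3. The median absolute difference was 0.38 for the 8 genes and 0.06 for all genes. Whether that difference varied between the 4 groups was tested by an interaction, in which 0 of the 8 genes were called, with 0.00763% of all genes, and 0 of the 8 had an unadjusted p under 0.05, where 7.36% of all genes did. The Gapdh 3' minus 5' difference was -0.21 ± 0.16 at numbers 4 to 6 and -0.25 ± 0.22 at 1 to 3 (SD, n = 12 mice each), and with it as a covariate Dbp was still called (adjusted p = 0.0368).

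**Figure D3:**
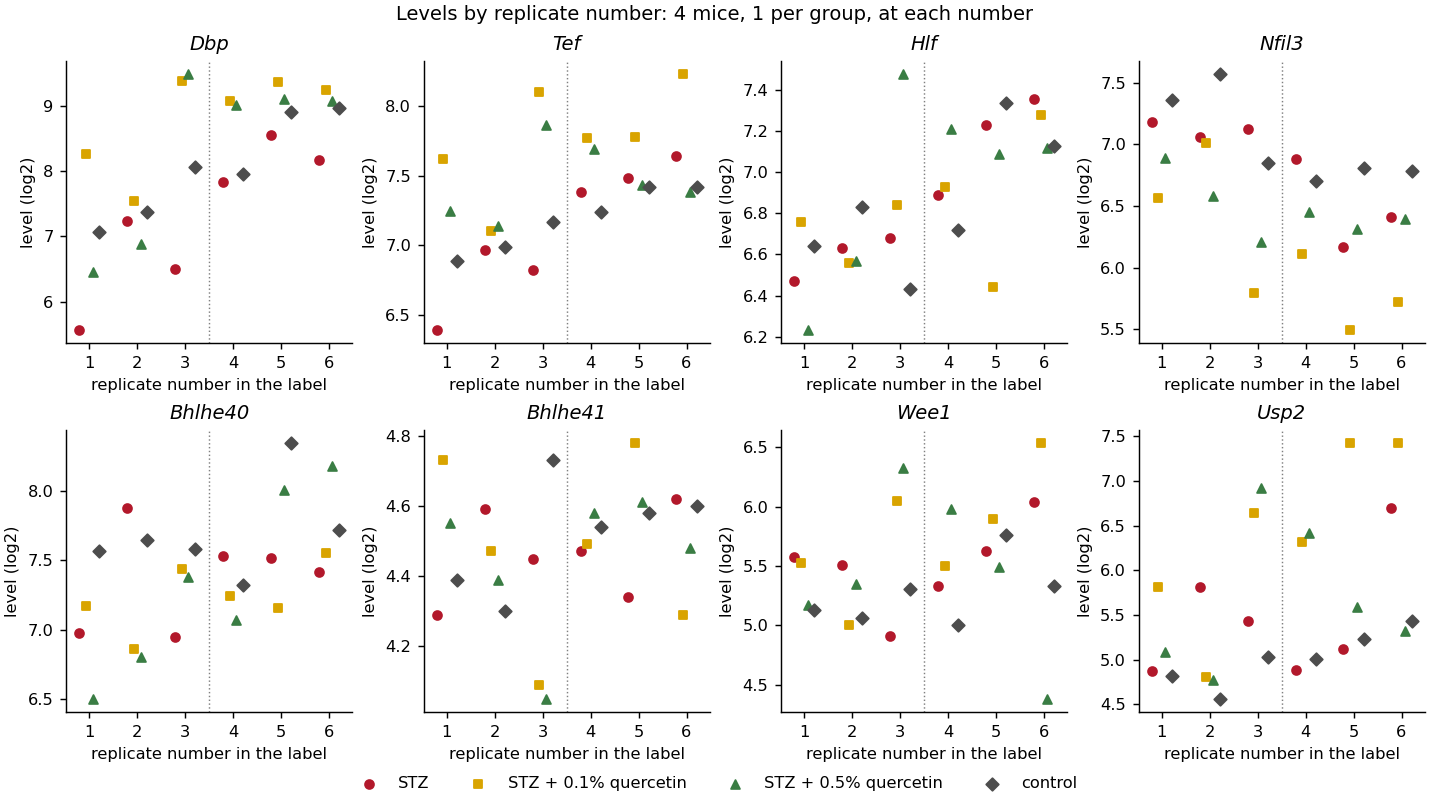
Level (log2(intensity + 16), y axis) of the 8 genes against the replicate number in the sample title (x axis), 4 mice at each number, 1 per group; the dotted line stands between numbers 3 and 4. Dbp at number 1 lies between 5.56 and 8.26 and at number 5 between 8.56 and 9.36, and Nfil3 is lower at numbers 4 to 6 in the mean of every group.

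The 2 calls at 0.1% quercetin against control were set against the numbers. For Nfil3 the difference was -0.99 within numbers 4 to 6 (3 mice a group, limma adjusted p = 0.0344, with 0.564% of all genes called) and -0.81 within 1 to 3 (adjusted p = 0.188). For Usp2 it was 1.83 within numbers 4 to 6 (adjusted p = 0.057) and 0.95 within 1 to 3 (adjusted p = 0.452). For Dbp against STZ the 0.1% quercetin difference was 1.04 within numbers 4 to 6 and 1.96 within 1 to 3, and neither passed (adjusted p of 0.813 and 0.981).

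From mouse to mouse within groups, most pairs of the clock output genes other than Bhlhe41 varied together, with Nfil3 opposite to the rest. Of all 28 pairs, 18 had an adjusted p under 0.05 (24 mice, group means removed, permutation test within groups, two-sided, Benjamini-Hochberg over the 28 pairs), 12 with positive and 6 with negative sign, and all 6 negative ones were pairs of Nfil3. An absolute r of 0.5 or more was reached by 16 of the 28 pairs (57.1%) and by 3.29% of the 85968828 pairs of all genes tested, given as a description. Dbp and Tef had r = 0.85 and rho = 0.82 (permutation p = 1e-05, the smallest that the permutations can give, and adjusted p = 0.00014), and r = 0.85 without the 2 mice farthest from the Dbp median. Dbp had r = 0.80 with Hlf (rho = 0.83, r = 0.73 without those 2 mice), -0.78 with Nfil3 (rho = -0.77, r = -0.78), 0.70 with Bhlhe40 (rho = 0.72, r = 0.60) and 0.65 with Usp2 (rho = 0.63, r = 0.63). Dbp and Wee1 had r = 0.46 (rho = 0.58), which did not pass by Pearson's r (permutation adjusted p = 0.0798) but passed by Spearman's rho (permutation adjusted p = 0.0102), and Dbp and Bhlhe41 r = 0.02. Bhlhe40 passed neither with Wee1 (r = 0.14, rho = 0.33) nor with Usp2 (r = 0.30, rho = 0.38), by r or by rho. No pair of Bhlhe41, the gene nearest the filter, passed. Its levels stayed between 4.05 and 4.78, where 4 is the value of a spot with no signal.

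The pairs were also taken within each set of numbers, and a difference between the sets was not tested. Within numbers 1 to 3 (12 mice), where Dbp ran over its full range, 9 pairs passed, with r = 0.91 for Dbp and Tef and 0.94 for Dbp and Usp2. Within numbers 4 to 6 (12 mice) 0 of the 28 pairs passed the adjusted permutation test, with r = 0.30 for Dbp and Tef and 0.21 for Dbp and Usp2, and 0.70 for Tef and Usp2. Other pairs had like values in both sets, among them Tef and Wee1 (0.82 within numbers 4 to 6 and 0.73 within 1 to 3), Tef and Hlf (0.78 and 0.62) and Wee1 and Usp2 (0.72 and 0.82). Still others turned sign, among them Bhlhe40 with Usp2 (-0.29 and 0.77), with Wee1 (-0.16 and 0.75) and with Tef (-0.04 and 0.75). With the means of group and of number set both removed, Dbp and Tef had r = 0.82 over the 24 mice, Dbp and Usp2 0.73 and Hlf and Nfil3 -0.26. With group means alone removed these were 0.85, 0.65 and -0.51.

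**Figure D4:**
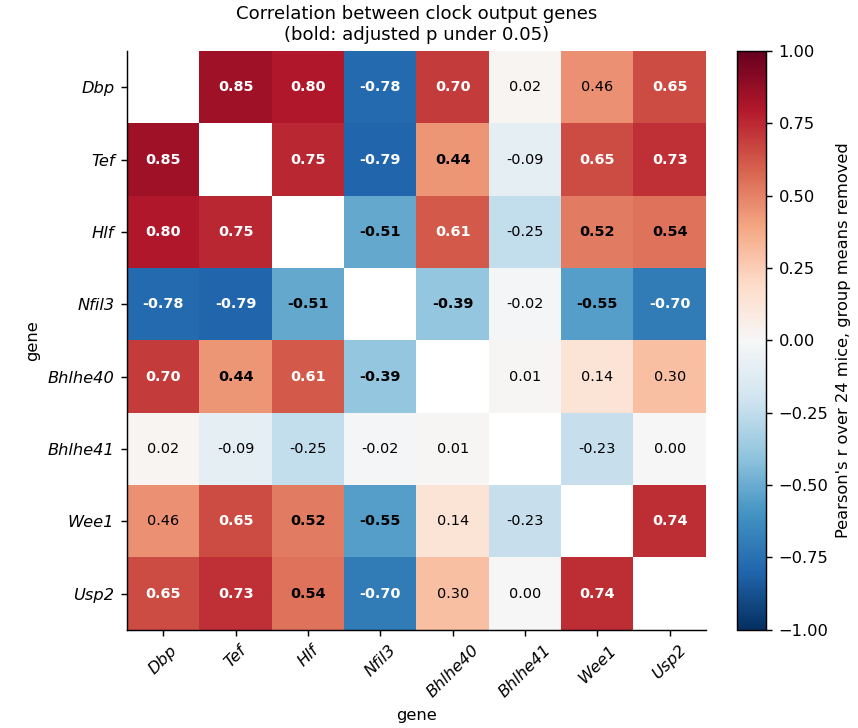
Pearson's r (colour and printed value) between each pair of the 8 genes (both axes) over 24 mice with group means removed; bold values have a permutation adjusted p under 0.05 over 28 pairs. Dbp, Tef, Hlf and Usp2 form a block of positive values, the row of Nfil3 is negative, and no value of Bhlhe41 is bold.

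The genes most like Dbp over the 24 mice, group means removed, were Pim3 (r = 0.89), a kinase gene, Nr1d2 (0.87), which encodes REV-ERBbeta, Nmd3 (0.86), an export factor of the large ribosomal subunit, Tef (0.85) and Uri1 (0.82). The genes most opposed to it were Npas2 (r = -0.96), Ypel2 (-0.88), Lrfn3 (-0.87), the ubiquitin ligase gene Nedd4l (-0.86) and the manganese exporter gene Slc30a10 (-0.83). Nfil3 was most like Arntl (0.89), Npas2 (0.83), Ccng2 (0.82), a cyclin gene, St3gal1 (0.82), a sialyltransferase gene, and Pdgfc (0.81), a growth factor gene. It was most opposed to Pik3ap1 (-0.81), Gne (-0.80), Nr1d2 (-0.80), Pim3 (-0.79) and Tef (-0.79). These are the extremes among all genes tested, given as a description, and all genes of a mouse share its array. Npas2 and Pdgfc were also among the 6 genes called by replicate number, with Ypel2, Pnrc1 and Cox15. Npas2 was dim, with levels of 4.05 to 5.66 over the 24 livers, where 4 is the value of a spot with no signal.

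Dbp and Usp2 were set side by side in single mice, and a difference in their relation between groups was not tested. Dbp was 9.08, 9.36 and 9.24 in 0.1% quercetin replicates 4, 5 and 6, near its levels of 9.11 and 9.08 in 0.5% quercetin replicates 5 and 6 and of 8.91 and 8.96 in control replicates 5 and 6. Usp2 was 6.32, 7.42 and 7.43 in those 0.1% quercetin mice, 5.59 and 5.32 in the 0.5% quercetin mice and 5.23 and 5.43 in the controls. Ciart, a clock gene whose protein represses the CLOCK and BMAL1 pair, was 5.21, 5.62 and 5.56 in those 0.1% quercetin mice, 4.12 and 4.04 in the 0.5% quercetin mice and 4.14 and 4.09 in the controls. In 0.5% quercetin replicates 3 and 4, with Dbp at 9.49 and 9.02, Usp2 was 6.92 and 6.42 and Ciart 5.18 and 5.25. These values describe a few mice chosen by their Dbp levels. The 0.5% quercetin mice named here are those that stood beside the controls on the first principal component. With the Dbp level of each mouse as a covariate, a fit added once the data had been seen, the Usp2 difference between 0.1% quercetin and control was 1.03 (limma adjusted p = 0.0509), that of Nfil3 -0.66 (adjusted p = 0.00945) and that of Bhlhe40 -0.69 (adjusted p = 0.0189). That fit called 5.16% of all genes.

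**Figure D5:**
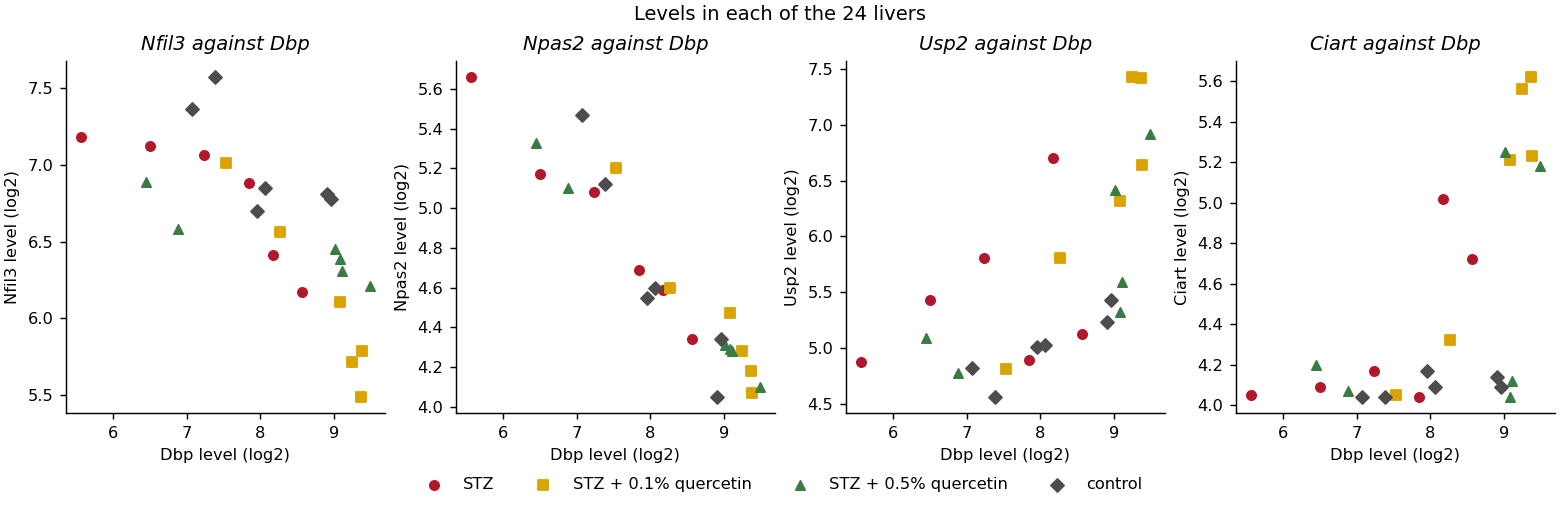
Levels (log2(intensity + 16)) of Nfil3, Npas2, Usp2 and Ciart (y axes) against Dbp (x axes) in each of the 24 livers, marked by group. Npas2 is lower where Dbp is higher in all groups. In the mice with Dbp of 8.91 or more, Usp2 and Ciart are higher at 0.1% quercetin (Ciart 5.21 to 5.62) than in 2 mice at 0.5% quercetin and 2 controls (Ciart 4.04 to 4.14).

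The core clock itself was covered by 15 tested genes of a list of 17. Ciart was the 1 called between groups, higher by 0.90 at 0.1% quercetin than in controls (SE 0.25, limma adjusted p = 0.0287). It had 4.05, 5.22 and 5.62 at 0.1% quercetin and 4.04, 4.09 and 4.17 in controls, so that every control lay next to 4, the value of a spot with no signal. The 0.90 therefore depends on the added constant and is not an exact fold. In this comparison 5.57% of all genes were called, and 3 of the 15 had an unadjusted p under 0.05, beside 2483 of all 13113 genes. In the other 5 comparisons 0 of 15 were called, with 1 (STZ against control), 5 (0.1% quercetin against STZ), 3 (0.5% quercetin against STZ), 2 (0.5% quercetin against control) and 5 (0.5% against 0.1% quercetin) at an unadjusted p under 0.05. The shares of all genes in the same order were 16.7%, 5.24%, 7.51%, 12.3% and 8.34%. By replicate number Npas2 was called (numbers 4 to 6 minus 1 to 3 -0.59, SE 0.13, limma adjusted p = 0.0266), and 8 of 15 had an unadjusted p under 0.05, against the 6.33% of all genes. The call of Npas2 was lost with a constant of 1 or 64, with no filter and without 0.5% quercetin replicates 5 and 6, where 0 genes were called by number.

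Of 10 genes known to depend on the PAR bZIP factors, 7 were tested. Alas1, the first enzyme of heme synthesis, was the 1 called, higher by 1.87 at 0.1% quercetin than in controls (SE 0.56, limma adjusted p = 0.0473). It differed by 1.42 between STZ and control (limma adjusted p = 0.179) and by 0.45 between 0.1% quercetin and STZ (0.992). At 0.1% quercetin against control 4 of the 7 had an unadjusted p under 0.05, beside 2483 of all 13113 genes, and 5.57% of all genes were called. All 7 had higher means at 0.1% quercetin than in controls, with a median difference of 0.39. All 7 also had higher means at 0.5% quercetin than in controls (median 0.38), and 5 of 7 in STZ mice than in controls (median 0.29). The number test called 0 of 7 (1 at an unadjusted p under 0.05). Of 12 other rhythmic liver genes 10 were tested. Elovl3, a fatty acid elongase with a daily rhythm in liver, fell by 2.05 on the log2 scale at 0.1% quercetin against control (SE 0.53, limma adjusted p = 0.019), and the 10 had a median difference of 0.24. Elovl3 differed by -1.18 between STZ and control (limma adjusted p = 0.25) and by -0.88 between 0.1% quercetin and STZ (0.95). At 0.1% quercetin against control 5 of the 10 had an unadjusted p under 0.05. The number test called 0 of these 10, with 3 at an unadjusted p under 0.05, and a median of 0.39 for numbers 4 to 6 minus 1 to 3. Beside both lists, that test called 0.0458% of all genes, with 6.33% at an unadjusted p under 0.05. Neither list had a call in the other 5 comparisons of groups, in which 4, 1, 0, 1 and 0 PAR bZIP-dependent and 1, 1, 1, 3 and 1 other rhythmic genes had an unadjusted p under 0.05 (STZ against control, 0.1% and 0.5% quercetin against STZ, 0.5% quercetin against control, and 0.5% against 0.1% quercetin), beside 16.7%, 5.24%, 7.51%, 12.3% and 8.34% of all genes.

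Second probe sets gave a check of the same genes with other probes. For Usp2 the second set differed by 1.20 between 0.1% quercetin and control, against 1.39 for the brightest, and by 0.52 between numbers 4 to 6 and 1 to 3, as the brightest did. For Dbp it differed by 1.32 between 0.1% quercetin and STZ (brightest 1.50) and by 1.02 between the sets of numbers (brightest 1.29). The other Tef sets were dim and differed by 0.00 and 0.43 between 0.1% quercetin and STZ, where the brightest gave 0.65. For 0.1% quercetin against control they gave -0.09 and 0.54, where the brightest gave 0.58. The second Wee1 set differed by 0.25 between 0.1% quercetin and control, against 0.49, and by -0.09 between STZ and control, against 0.24. For Hlf the sets disagreed in sign as well, for 0.1% quercetin against STZ (0.19 in the second, -0.08 in the brightest) and had the same sign for the sets of numbers, at 0.16 and 0.38. Of the Bhlhe41 sets 1 lay under the filter, between 4.02 and 4.22 in all arrays, and Nfil3 and Bhlhe40 had 1 probe set each.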

How the data were processed

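Liver RNA of 24 mice was measured with 1 Affymetrix array per mouse, from biotin-labelled cRNA made with a T7-(dT)24 primer, per the labels' protocols. The deposited values are linear probe set intensities, and the summary method and any scaling are not given in the sources used here. The design text and labels give groups but no statistical test.

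The deposited intensities were quantile normalized and turned into log2(value + 16), a constant that understates folds of dim genes. Every fold given is a ratio of values with that constant added. Of 45101 probe sets, 64 were controls, 34945 had 1 symbol, 932 several and 9160 none in the platform table. The GRCm38.p6 gene table held the gene ID of 34741 probe sets with 1 symbol and changed 0 symbols. A gene was represented by its brightest probe set with 1 symbol, and genes under the 40th percentile of probe set means were left out. limma 3.58.1 in R 4.3.3 fitted 4 group means over 24 arrays, and group means plus 6 replicate numbers for the F test. The p-values measure the spread between mice, and the number of arrays limits the precision. No cage is tied to a mouse. The scripts were tested on simulated data.

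The members and gene lists were chosen with earlier results of these data known. Named were all 8 members, list genes that were called (at most 4 a direction), the 5 most and 5 least like Dbp and Nfil3, Ciart also where set against Dbp, and the genes called by number. The last of these, and the mice set side by side for Usp2, were chosen after their values were seen. Over all genes tested, the same-numbered mice of 2 groups did not deviate together in every pair, with correlations of their deviations between -0.14 and 0.32. The numbers were therefore not used as a pairing in the main fit. That leaves the differences of Dbp and Nfil3 between numbers in their SE. With the number as a block the SE was 0.29 in place of 0.51 for Dbp and 0.14 in place of 0.21 for Nfil3. Alternatives changed the scaling, the added constant, the filter, the probe set rule, the fit, and the mice included.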

Additional observations from a re-analysis of the deposited data

How the results depend on the processing

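The 24 settings that leave out 1 array each and up to 17 other settings were run. At 0.1% quercetin against control, 2 of the 8 genes were called, 1 with a constant of 1 (Usp2 lost at a difference of 1.95), with a trended and robust prior (Usp2 lost at 1.39) or within numbers 4 to 6, 0 within numbers 1 to 3 or with the Gapdh covariate, and 1 to 3 without 1 array; with a constant of 64 Usp2 stayed called at 0.79. With the replicate number as a block, 3 were called there, Tef joining (adjusted p = 0.0185, also 0.0254 with the number sets as a block and 0.0417 with only the groups compared), with Nfil3 at 0.00088 and Usp2 at 0.0146; this block is not a pairing shown by the labels, and it changed no other call. At 0.5% quercetin against control 0 were called, and 1 without replicates 5 and 6. By replicate number 1 was called, and 0 with a constant of 1 (Dbp adjusted p = 0.255), a constant of 64 (0.0598), no filter (0.0632), a trended and robust prior (0.145) or without those 2 mice (0.0743), and 0 to 2 without 1 array. The Dbp difference of numbers 4 to 6 minus 1 to 3 (1.29) was 1.41, 1.04, 1.29, 1.29 and 1.26 in those settings. Pairs correlated numbered 18, with 9 within numbers 1 to 3 and 0 within 4 to 6. The causes were not tested, other than that settings within sets of numbers hold fewer mice.

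The sign turned for Usp2 in STZ against control with the Gapdh covariate (-0.14), for Dbp at 0.5% quercetin against control without 2 mice (-0.09), for Usp2 at 0.5% quercetin against STZ with the Dbp covariate (-0.27) and between -0.03 and 0.46 without 1 array, and for the correlation of Dbp and Bhlhe41 with a constant of 1 (-0.06), with group and number set means removed (-0.30), within numbers 1 to 3 (-0.38), without the 2 mice (-0.04) and from -0.07 to 0.20 without 1 array. Among 22 differences given as a range or not at all, 69 of 896 values had the opposite sign, none larger than 0.30 and none called. Over all genes, calls for STZ against control (488) were 161 on the values as deposited, 147 and 31 within numbers 1 to 3 and 4 to 6 and 6 with the Gapdh covariate; for 0.1% quercetin against control (731), 217, 124, 74 and 4; for 0.5% quercetin against control (17), 0 to 686, the highest under median scaling; and by number (6), 0 to 7. Without 1 array these counts were 246 to 548, 440 to 816, 1 to 150 and 0 to 12.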
